A study of Mus musculus with 4 samples.

Results

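Mcpt8 encodes a serine protease of basophil granules and lies in a cluster of related granzyme and mast cell protease genes on mouse chromosome 14. The 10 genes described here are Mcpt8, the granzymes Gzmb, Gzmc, Gzmf, Gzmg and Gzmn, the mast cell proteases Mcpt1, Mcpt2 and Mcpt4, and the chymase Cma1, out of 19505 genes measured. They were chosen on the comparison of the genotypes, as the locus of Mcpt8, which had the greatest Hem1 KO minus WT difference of all genes, and their differences are given as a description, from which nothing is inferred. Each of the 10 has 1 probe set in the platform annotation.

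The samples were macrophages grown from the bone marrow of Hem1 KO mice and of WT mice, with 2 arrays per genotype, each from a distinct mouse. Hem1, the product of Nckap1l, is the blood cell subunit of the WAVE complex, which drives branched actin assembly. Both genotypes had the same culture, 8 days in RPMI with 20% L929 cell conditioned medium, a source of the growth factor CSF1, and 10% fetal calf serum, and no other treatment. The sources used here do not give the allele, strain, age or sex of the mice. Values are log2 RMA signals. Differences are Hem1 KO minus WT in log2 units, each with its standard error (SE) from limma.

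Proteases of this family are made as inactive precursors, are activated by cathepsin C, which removes a dipeptide, and are stored in granules bound to the proteoglycan serglycin. Cytotoxic lymphocytes use granzymes to kill target cells, mast cells store chymases and other proteases, and Mcpt8 is in common use as a marker of mouse basophils. Members of the cluster share an ancestor but are expressed in different cells, and the cluster thus serves several lineages.

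The targeted gene was lower in the cultures labelled Hem1 KO. Nckap1l read 10.04 and 9.62 on the Hem1 KO arrays, against 11.37 and 11.11 on the WT arrays (difference -1.41, SE 0.32, limma adjusted p = 0.0467), and all 4 values were above background. Which part of it was deleted the sources used here do not say, so whether the probes lie in that part is not known. The signal thus cannot check the deletion itself. With any single array left out, the Nckap1l difference stayed negative, from -1.62 to -1.20. Its adjusted p lay close to the threshold of 0.05. The limma adjusted p was 0.0866 when genes above background on fewer than 2 arrays were dropped. All 10 measured macrophage markers were above background on every array. Limma called 0 of them, while 1 was lower at a p under 0.05 unadjusted. All 10 differences were negative, from -0.74 to -0.13, with a median of -0.34. Fcgr1 (-0.74), Cd163 (-0.59), Adgre1 (-0.44) and Itgam (-0.42) had the smallest p. Background was taken from 1450 chemosensory receptor genes, at their 95th percentile on an array. It was 6.04 and 5.38 on the Hem1 KO arrays and 5.87 and 5.51 on the WT arrays. Replicate 1 of each genotype was therefore brighter at the dim end, where most of the locus lies.

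Mcpt8 was far above background in both Hem1 KO cultures and at background in both WT cultures. It read 10.07 and 9.52 on the Hem1 KO arrays, against 5.89 and 5.22 on the WT arrays. The groups were 3.63 apart at their nearest, while the arrays within a genotype differed by 0.55 (Hem1 KO) and 0.67 (WT). The mean was 9.79 ± 0.39 in Hem1 KO and 5.55 ± 0.47 in WT cultures (SD, n = 2 each), a fitted log2 difference of 4.24 (SE 0.35). With each WT value raised to that array's background where it lay below it, the Hem1 KO mean was 17.1-fold higher. On WT replicate 1 Mcpt8 lay 0.01 above background and on WT replicate 2 it lay 0.30 below (-0.30), so that the WT level was measured on 1 of 2 arrays, and only just. Leaving out any single array gave differences of 3.91 to 4.58.

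Gzmc was the other gene of the 10 whose arrays were well apart, though at a far dimmer signal. Granzyme C, made by activated cytotoxic lymphocytes, read 6.16 and 5.69 on the Hem1 KO arrays, against 3.90 and 4.10 on the WT arrays. The nearest arrays of the genotypes were 1.59 apart. The fitted log2 difference was 1.92 (SE 0.32). Both Hem1 KO values were close to background, 0.12 and 0.31 above it, and both WT values were below it, so that the measured change is only a bound, at least 1.17-fold higher in Hem1 KO. The bound sets the Hem1 KO mean against the mean background of the WT arrays. With background at the 99th percentile of the receptor genes, a level chosen after seeing the data, Gzmc lay below it on all arrays.

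**Figure D1:**
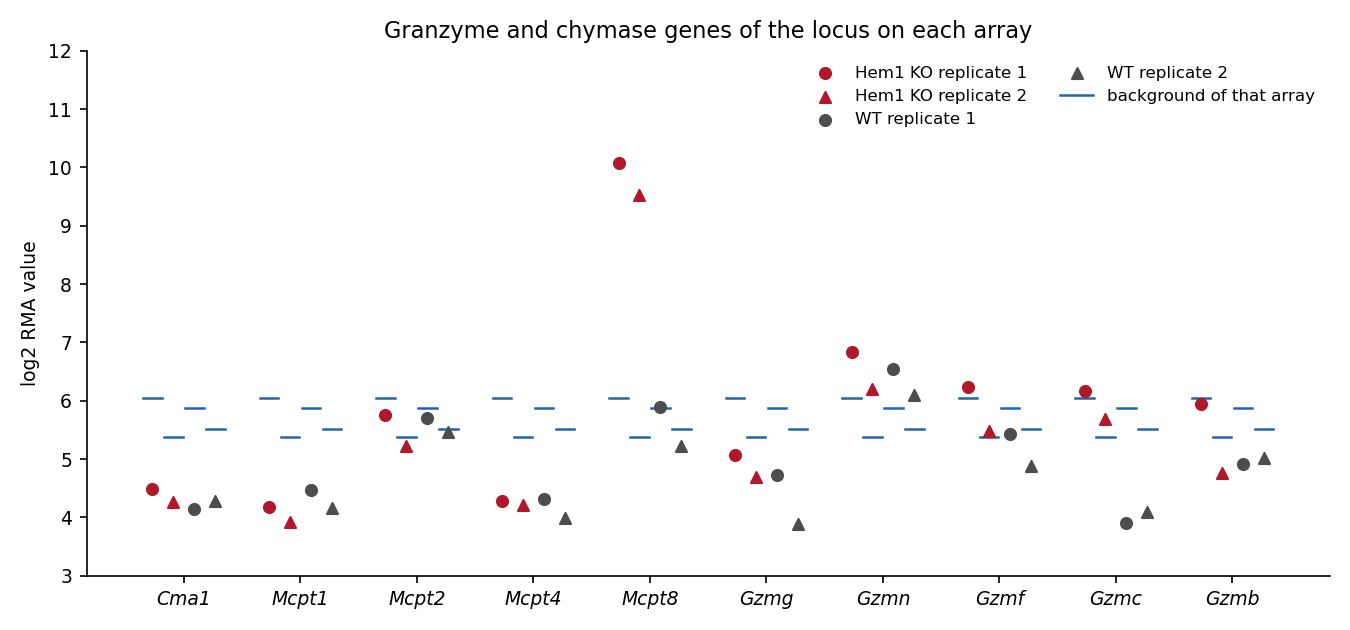
Log2 RMA value of each of the 10 genes on each array, in chromosomal order, with Hem1 KO arrays in red, WT arrays in grey and that array's background as a blue line. Mcpt8 reads 10.07 and 9.52 in Hem1 KO, against 5.89 and 5.22 in WT, and 6 of the 10 genes lie below background on all arrays.

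The other granzymes were at or near background. Granzyme F, Gzmf, of the same subfamily as granzyme C, read 6.23 and 5.47 on the Hem1 KO arrays, against 5.43 and 4.87 on the WT arrays. These values did not overlap, but only by 0.05, less than the 0.76 between the Hem1 KO arrays (log2 difference 0.70, SE 0.36, at least 1.11-fold). Granzyme G, Gzmg, another of that subfamily, was below background throughout, at 5.08 and 4.69 in Hem1 KO and 4.72 and 3.88 in WT cultures, and the groups overlapped. Granzyme B, Gzmb, which cleaves after aspartate and starts apoptosis in target cells, was also below background, at 5.94 and 4.76 in Hem1 KO and 4.92 and 5.02 in WT cultures. Its 2 Hem1 KO arrays lay on either side of the WT arrays, and its difference of 0.38 was -0.21 without Hem1 KO replicate 1. Gzmn, described from mouse testis, was the only one of the 10 above background on all 4 arrays, at 6.83 and 6.19 in Hem1 KO and 6.55 and 6.10 in WT cultures. The Gzmn groups overlapped (log2 difference 0.19, SE 0.34). With background at the 99th percentile, Gzmf lay below it on all arrays, and Gzmn lay above it only on Hem1 KO replicate 2.

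The mast cell proteases were below background on all arrays of both genotypes. Mcpt4, the chymase of connective tissue mast cells and the nearest measured gene to Mcpt8 on 1 side, read 4.28 and 4.22 in Hem1 KO and 4.31 and 3.99 in WT cultures. Cma1, another connective tissue mast cell protease, read 4.48 and 4.27 in Hem1 KO and 4.15 and 4.28 in WT cultures. The mucosal mast cell proteases Mcpt1 and Mcpt2 had log2 differences of -0.26 (SE 0.32) and -0.10 (SE 0.33). Mcpt1 ran from 3.92 to 4.18 in Hem1 KO and from 4.16 to 4.46 in WT cultures, and Mcpt2 from 5.22 to 5.76 in Hem1 KO and from 5.46 to 5.71 in WT cultures. In each of these 4 genes the genotypes overlapped.

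The fit over all genes placed 2 of the 10 past its threshold as higher, Mcpt8 and Gzmc, and 0 as lower, where it called 1.48% of all genes higher and 0.133% lower. No overlap between the genotypes, with Hem1 KO higher, was found in 3 of the 10, Mcpt8, Gzmc and Gzmf, against 12.5% of all genes. Unadjusted, too, 0 of the 10 were lower at a p under 0.05. Since this contrast chose the locus, nothing is read from these counts. The median difference of the 10 was 0.29, beside 0.01 for all genes. Single arrays moved it: leaving out Hem1 KO replicate 1 gave 0.06, leaving out Hem1 KO replicate 2 gave 0.64, and leaving out WT replicate 2 gave 0.19. A dim probe set bounds a change poorly, so that a difference in the 6 genes below background on all arrays may not have been detectable.

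The measured genes directly beside Mcpt8 were below background in both genotypes. In RefSeq order Mcpt4 is directly next to Mcpt8 on 1 side (log2 difference 0.10, SE 0.32). On the other side a microRNA gene lies between it and Ctsg, which encodes cathepsin G of neutrophil granules. Ctsg read 4.95 and 4.75 in Hem1 KO and 4.91 and 4.73 in WT cultures (0.03, SE 0.31), below background on all arrays. Gzmc lies 14 genes further along than Mcpt8, with Gzmg, Gzmn and Gzmf between them. The locus from Cma1 to Gzmb holds 26 RefSeq genes, of which 15 encode proteins and 13 were measured. The 3 measured genes outside the described 10 were Ctsg, the chymase gene Cma2 (0.30, SE 0.37) and Mcpt9, a mast cell protease gene of the uterus (0.24, SE 0.33). All 3 were below background on every array, and limma called 0 of them (0 at an unadjusted p under 0.05). The expression of Gzmd and Gzme was not analysed here.

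The flanks of the locus were likewise without a call. Of 20 flanking RefSeq genes, 10 on each side, 12 were measured. Limma called 0 of these, while 2 had an unadjusted p under 0.05. Both lay on the Cma1 side. Nynrin read 6.08 and 6.05 in Hem1 KO and 5.02 and 4.79 in WT cultures (1.16, SE 0.31, adjusted p = 0.119), below background in WT. Nfatc4, which encodes a calcineurin-dependent transcription factor, read 7.54 and 7.42 in Hem1 KO and 6.32 and 6.44 in WT cultures (1.10, SE 0.31, adjusted p = 0.160). Sdr39u1 and Khnyn, the nearest measured genes beyond Cma1 and both above background on all arrays, had differences of -0.04 and -0.25. Beyond Gzmb, the 4 measured genes ran from -0.44 (Parp4) to -0.03 (Atp12a).

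**Figure D2:**
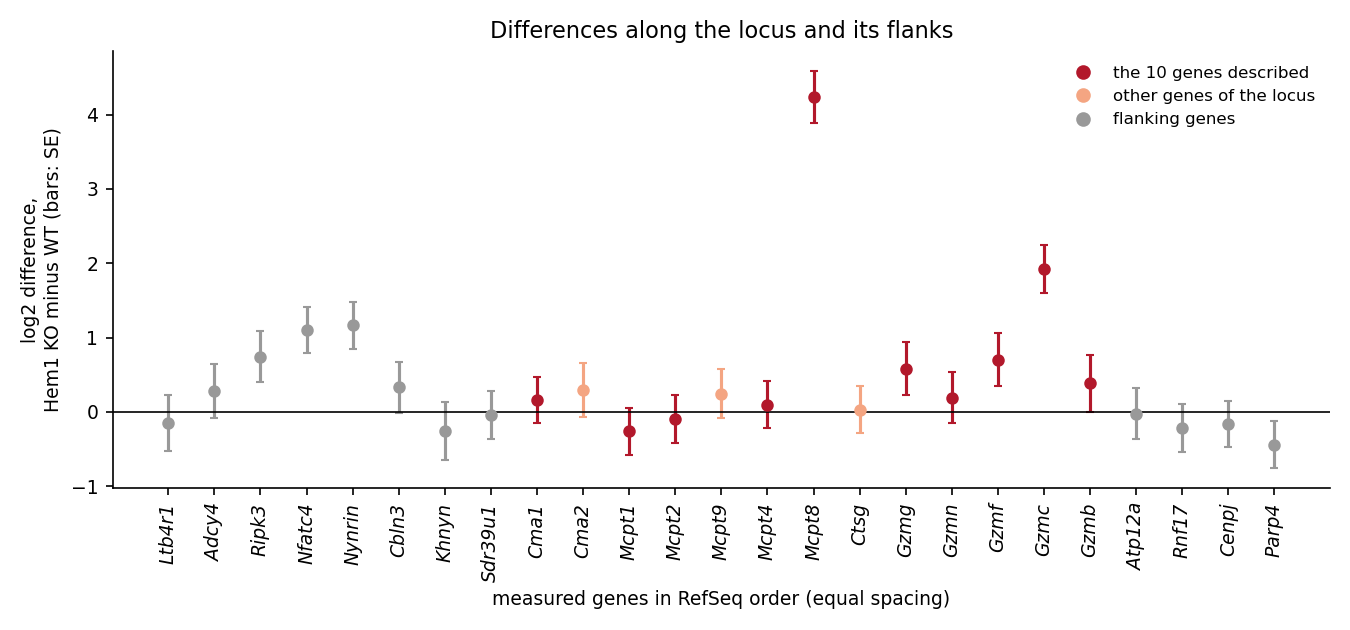
Log2 difference, Hem1 KO minus WT, with limma's SE as bars, for the 25 measured genes of the locus and its flanks in RefSeq order, evenly spaced. Mcpt8 stands at 4.24 and Gzmc at 1.92, while Mcpt4 and Ctsg beside Mcpt8 stand at 0.10 and 0.03.

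The promoter windows of the cluster were compared in sequence. RefSeq windows of 250 bases before the gene's start (GRCm38.p6) were at hand for 9 of the 10 genes, and for Mcpt9, Ctsg, Gzmd and Gzme, 13 in all. Within the subfamily of Gzmc, Gzmd, Gzme, Gzmf and Gzmg, pairs of windows were 79.2% to 95.2% identical. The windows of Mcpt1 and Mcpt4 were 85.2% identical. The Mcpt8 window was 56.4% to 65.6% identical to the other 12 and nearest to that of Mcpt1. Unrelated windows were not aligned, so these lower values have no baseline and relatedness is not read from them. The windows of Mcpt8 and Gzmc are shown because their arrays were well apart between the genotypes. That of Gzmf is shown because it is 79.2% identical to the Gzmc window. The Mcpt4 window is shown because it lies upstream of the neighbour of Mcpt8. The signals of Gzmc and Gzmf were both near background. Capitals mark TGTGGT, the core bound by RUNX factors, on either strand (ACCACA on the other).
Mcpt8 (chr14:56085198-56085447, minus strand): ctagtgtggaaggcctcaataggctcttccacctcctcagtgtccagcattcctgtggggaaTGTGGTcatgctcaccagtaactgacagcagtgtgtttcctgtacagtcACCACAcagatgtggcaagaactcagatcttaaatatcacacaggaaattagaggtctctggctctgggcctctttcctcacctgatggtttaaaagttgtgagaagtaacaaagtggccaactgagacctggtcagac
Gzmc (chr14:56234658-56234907, minus strand): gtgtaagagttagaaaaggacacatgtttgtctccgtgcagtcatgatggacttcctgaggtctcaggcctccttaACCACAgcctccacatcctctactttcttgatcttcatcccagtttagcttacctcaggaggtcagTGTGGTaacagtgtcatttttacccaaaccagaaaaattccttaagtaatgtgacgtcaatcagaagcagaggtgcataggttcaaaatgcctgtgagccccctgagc
Gzmf (chr14:56211408-56211657, minus strand): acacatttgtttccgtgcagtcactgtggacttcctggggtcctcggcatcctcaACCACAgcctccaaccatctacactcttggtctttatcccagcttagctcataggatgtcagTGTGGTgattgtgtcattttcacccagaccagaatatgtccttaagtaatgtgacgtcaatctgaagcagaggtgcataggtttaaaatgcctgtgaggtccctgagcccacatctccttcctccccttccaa
Mcpt4 (chr14:56062311-56062560, minus strand): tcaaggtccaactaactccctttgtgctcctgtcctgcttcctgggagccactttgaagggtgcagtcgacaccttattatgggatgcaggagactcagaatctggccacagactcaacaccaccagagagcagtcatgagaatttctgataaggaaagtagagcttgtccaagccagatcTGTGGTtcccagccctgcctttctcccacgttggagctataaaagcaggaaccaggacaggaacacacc

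In the Mcpt8 window the 2 matches cover bases -188 to -183 and, on the opposite strand, -139 to -134, counted back from the gene's start. The Gzmc window holds them at -174 to -169 (opposite strand) and -108 to -103, and the Gzmf window at -195 to -190 (opposite strand) and -133 to -128. Mcpt4 has a single match at -69 to -64. Across the locus 10 of 13 windows held TGTGGT and 7 held 2 matches, those of Mcpt8, Gzmb, Gzmc, Gzmd, Gzme, Gzmf and Gzmg. Among all 32851 windows of this length 14.05% held it and 1.27% held it more than once. The windows of Gzmc, Gzmd, Gzme, Gzmf and Gzmg are alike in sequence and do not count as separate cases. The Gzmg window held its matches at -190 to -185 (opposite strand) and -128 to -123. In the Gzmb window they lay at -93 to -88 and -34 to -29, neither on the opposite strand. The probe sets of Gzmb and Gzmg were below background. Whether the matches bear on expression was not tested.

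No other motif searched, on both strands, was found in the windows of both Mcpt8 and Gzmc. GATAA, the core of sites bound by Gata2 and its relatives, was found in 6 of 13 windows, those of Cma1, Mcpt1, Mcpt4, Gzme, Gzmg and Gzmf, against 22.6% of all windows, and not in the Mcpt8 or Gzmc window. GAGGAA, a core of PU.1 sites, was in 6 windows, Mcpt8 among them at -65 to -60, against 23.3% of all. TTCNNNGAA, a STAT site, was only in the Ctsg window (7.02% of all), TGAGTCA, an AP-1 site, only in that of Gzmb (4.46%), and TTGCNNAA, a form of C/EBP site, in 0 of 13 (9.56%). None of these motifs overlapped a TGTGGT match. A match is only a run of letters, and binding was not measured.

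No basophil marker other than Mcpt8 was called. Of the 9 others measured, limma called 0 (0 at an unadjusted p under 0.05), with a median difference of -0.02 and a range of -0.17 to 0.15. The defining surface markers were below background on all arrays. Cd200r3, an activating receptor, read 5.10 and 4.54 in Hem1 KO and 5.23 and 4.76 in WT cultures. Fcer1a, the IgE-binding chain of the high-affinity IgE receptor, read 5.05 and 4.64 in Hem1 KO and 5.01 and 4.96 in WT cultures. Ms4a2, the beta chain of that receptor, and Cyp11a1, a steroid-synthesis enzyme, had differences of -0.07 and 0.15.

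Granule and cytokine genes of basophils were among those not called. Prss34, another basophil protease, read 7.29 and 6.25 in Hem1 KO and 7.16 and 6.30 in WT cultures, so that the arrays split by replicate number and not by genotype (0.04, SE 0.40). Hdc, which makes histamine, the cytokine gene Il4 and the transcription factor gene Gata2 were below background on all arrays, with differences of -0.01, -0.04 and -0.01. Il3ra, the IL-3 receptor alpha chain, was bright everywhere, at 10.82 and 10.72 in Hem1 KO and 10.785 and 10.790 in WT cultures. Without Mcpt8, the summed signal of the basophil list was 10.91 to 11.10 in Hem1 KO and 10.99 to 11.06 in WT cultures on the log2 scale, most of it from Il3ra. In whole cultures a change in the number of cells of a type and a change in RNA per cell cannot be told apart, and which cells held Mcpt8 was not measured.

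Markers of mast cells and of killer lymphocytes gave 0 calls as well. Of 12 mast cell markers outside the 10 genes, limma called 0 (0 at an unadjusted p under 0.05), 8 were below background on all arrays, and the median difference was -0.04. The smallest p was that of the transcription factor gene Mitf (-0.55, SE 0.32). Carboxypeptidase A3, Cpa3, read 5.10 and 4.999 in Hem1 KO and 5.35 and 4.92 in WT cultures, and the tryptases Tpsab1 and Tpsb2 had differences of 0.31 and 0.23. Kit, the stem cell factor receptor, read 7.15 and 6.20 in Hem1 KO and 6.95 and 6.04 in WT cultures. Of 14 NK and cytotoxic T cell markers limma called 0 (0 at an unadjusted p under 0.05), and 13 were below background on all arrays, perforin, Prf1, and the T cell receptor component Cd3e among them. Their median was 0.08, and those with the smallest p were Cd8a (-0.32), Ncr1 (0.25), Eomes (0.24) and Il2rb (0.26). The granzymes outside the locus also gave no call: of 8 measured genes of granzymes and killing outside the locus limma called 0 (0 at an unadjusted p under 0.05), those with the smallest p being Cst7 (-0.47) and Lamp1 (-0.29). Gzma and Gzmk were below background, and Gzmm, which was above it, had a difference of 0.04 (SE 0.32).

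Neutrophil and promyelocyte markers, Ctsg of the locus among them, also gave no call. Of 10 measured, limma called 0 (0 at an unadjusted p under 0.05), with a median of 0.07. Those with the smallest p were the antimicrobial peptide gene Camp (0.54, SE 0.37, above background on both Hem1 KO arrays and on 0 WT arrays), the calcium-binding S100a8 (-0.44), Elane (0.23) and Ngp (-0.25). Elastase, Elane, read 6.55 and 6.04 in Hem1 KO and 6.43 and 5.69 in WT cultures, and proteinase 3, Prtn3, read 7.60 and 6.62 in Hem1 KO and 7.31 and 6.54 in WT cultures. Both arrays of replicate 1 were the brighter ones.

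**Figure D3:**
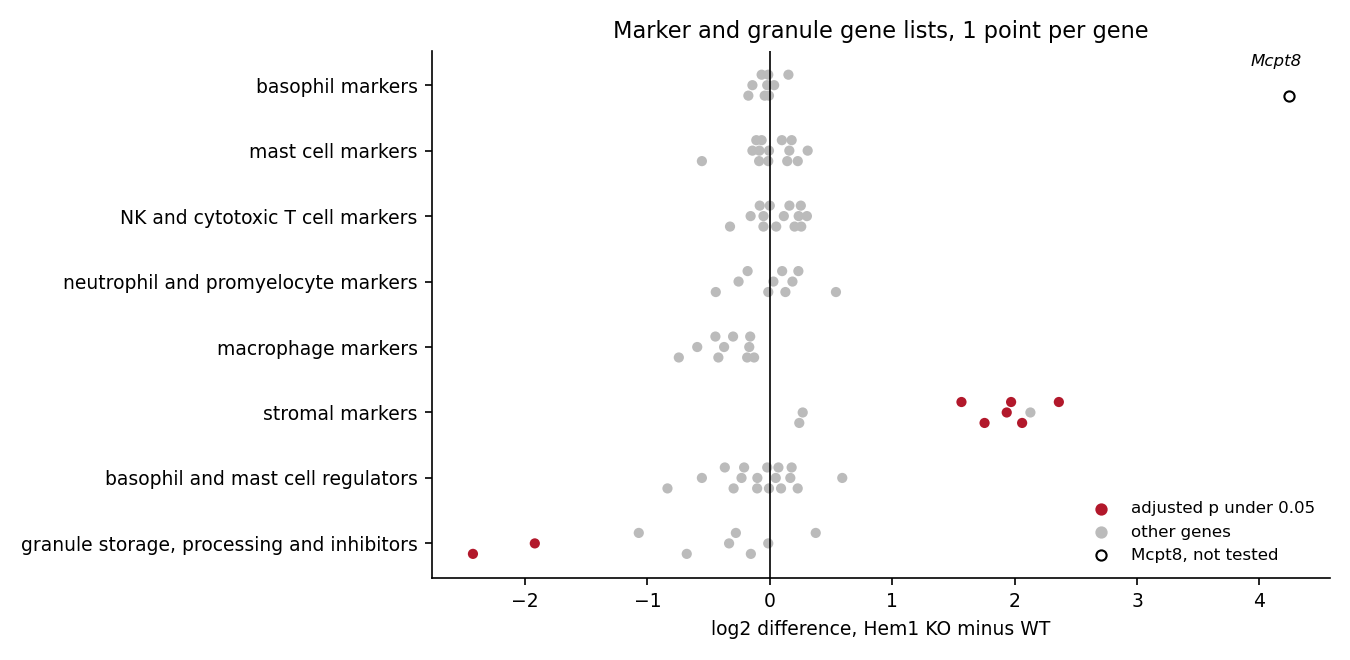
Log2 difference, Hem1 KO minus WT, of each measured gene of 8 lists, with 1 point per gene and genes at an adjusted p under 0.05 in red. Mcpt8, drawn open, stands at 4.24 among basophil markers whose other members run from -0.17 to 0.15, while stromal markers and 2 serpin genes stand apart from 0.

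Stromal markers differed between the genotypes in the same direction as Mcpt8. Of 9 measured, limma called 6 higher and 0 lower, with a median of 1.94, where it called 1.48% of all genes higher. At an unadjusted p under 0.05, 7 were higher and 0 lower. The collagen gene Col1a1 read 11.26 and 10.53 in Hem1 KO and 9.04 and 8.82 in WT cultures, and the receptor gene Pdgfrb read 10.22 and 10.19 in Hem1 KO and 7.96 and 7.73 in WT cultures. The other 4 called were Cxcl12, Acta2, Col1a2 and Col3a1 (1.57 to 2.06). Without WT replicate 2 the differences of the last 3 were 1.495, 1.58 and 1.17. Dcn was not called (2.13, SE 0.52, limma adjusted p = 0.0673), though its arrays did not overlap between the genotypes. Thy1 and Lum were below background on all arrays. The summed stromal signal was 13.0 to 13.4 in Hem1 KO and 11.1 to 11.6 in WT cultures on the log2 scale. Its part in the Mcpt8 difference was not tested.

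Transcripts of cathepsin C and serglycin, which activate and store these proteases, were above background on all arrays of both genotypes. Protein was not measured. Cathepsin C, Ctsc, read 11.19 and 11.25 in Hem1 KO and 11.20 and 10.49 in WT cultures (0.38, SE 0.34), and serglycin, Srgn, read 10.40 and 9.68 in Hem1 KO and 10.46 and 9.93 in WT cultures (-0.15, SE 0.35). Neither was called by limma. Ndst2, which sulfates the heparin that binds mast cell proteases, was also above background on all arrays (-0.28, SE 0.31).

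Of the clade B serpins listed, intracellular protease inhibitors of a family that includes inhibitors of granzymes, 2 of 4 were lower in Hem1 KO cultures. Serpinb9b read 7.49 and 6.75 in Hem1 KO and 9.64 and 9.45 in WT cultures (log2 difference -2.42, SE 0.34, adjusted p = 0.00246 by limma). Serpinb6b read 5.35 and 5.61 in Hem1 KO and 7.60 and 7.20 in WT cultures (-1.92, SE 0.32, adjusted p = 0.00607) and was above background on 1 of 2 Hem1 KO arrays. With any single array left out, the differences ran from -2.80 to -2.05 for Serpinb9b and from -2.12 to -1.72 for Serpinb6b. Serpinb1a, an inhibitor of neutrophil proteases, read 6.53 and 6.54 in Hem1 KO and 7.83 and 7.38 in WT cultures and did not pass (-1.07, SE 0.32, adjusted p = 0.213). Serpinb9, the inhibitor of granzyme B in mouse lymphocytes, was near background (-0.33, SE 0.32). Of the 9 measured genes of granule storage, processing and inhibition, limma called these 2 lower and 0 higher. Among all genes it called 0.133% lower and 1.48% higher. The list was chosen with earlier results of these data known.

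Regulators of the basophil and mast cell lineages were not called. Of 17 measured, limma called 0. Unadjusted, 0 were higher at a p under 0.05 and 1 was lower, the shared receptor chain Csf2rb (-0.84, SE 0.35, adjusted p = 0.759). Among the other members were Ikzf2 (0.59), Mitf (-0.55), Irf8 (-0.37) and Runx1, which was bright in both genotypes at 10.67 and 10.26 in Hem1 KO and 10.97 and 10.42 in WT cultures (-0.23, SE 0.34). The cytokine genes Il3 and Tslp were below background on all arrays.

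The 5 genes elsewhere in the genome with the pattern nearest to that of Mcpt8 were Irs1, Gdpd3, Ogn, Ibsp and Rcan2. Likeness was the Euclidean distance over the 4 arrays between log2 values centred on each gene's mean, among genes above background on both Hem1 KO arrays, which is where such genes are high. With 4 arrays in 2 groups the measure holds little beyond the genotype difference that chose Mcpt8, so the 5 are a description only. Irs1, Ibsp and Rcan2 were below background on both WT arrays. The insulin receptor substrate gene Irs1 read 9.68 and 9.64 in Hem1 KO and 5.68 and 5.24 in WT cultures, at a distance of 0.40. The lysophospholipase gene Gdpd3 was at 0.42 and the osteoglycin gene Ogn at 0.47. The bone sialoprotein gene Ibsp and the calcineurin regulator gene Rcan2, both at 0.92, differed more between the Hem1 KO arrays than Mcpt8 did.

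**Figure D4:**
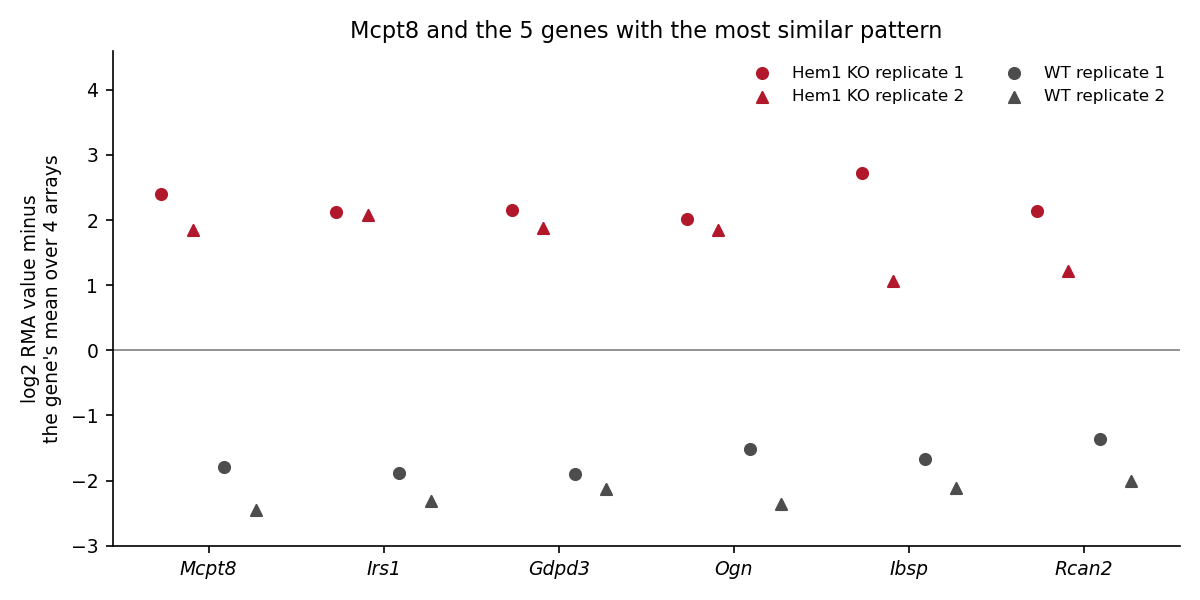
Log2 RMA value minus the gene's mean over the 4 arrays for Mcpt8 and the 5 genes nearest to it, with Hem1 KO arrays in red and WT arrays in grey. In all 6 genes both Hem1 KO arrays lie above both WT arrays, and Ibsp has the widest gap between the Hem1 KO arrays.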

How the data were processed

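RNA of 4 cultures was measured on 1 array each. The deposited table holds log2 values made by the authors with RMA (background correction, normalization and summary of probes), per the submitters' processing notes, without version or settings. That they are log2 was read from the values. The arrays' medians differ, so no quantile step across them is visible, and the values were used as they stand. The platform annotation gives 1 gene symbol for 19572 of the 29129 probe sets and controls, several for 0 and none for 9557. For 55 genes with several probe sets the brightest by mean over the arrays was kept, leaving 19505.

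Genotypes were compared with the lmFit and eBayes functions of limma 3.58.1 (R 4.3.3; no trend, genotype as the only term, two-sided, 11.2 prior degrees of freedom), with Benjamini-Hochberg adjustment over all genes and a threshold of 0.05. The fit was tested on simulated data. An exact permutation test of these arrays cannot give a p below 0.333. The number of arrays limits the precision. Promoter windows came from RefSeq (GRCm38.p6), and identity is the share of the 250 bases matched in a global alignment (Biopython 1.88). Gene coordinates are not given, since the sources used here do not name the array's build. Probe sequences were not used, so cross-hybridization between near-identical granzymes was not tested.

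Members and lists were chosen with earlier results of these data known, and the motifs and the genes described as defining markers after values were seen. The rule for other names was every called gene of a list up to 6, otherwise up to 4 with the smallest p, the called and directly neighbouring genes of the locus, and the 5 genes most like Mcpt8, leaving out predicted, small RNA and receptor genes. Other genes named, such as Kit, Cpa3, Prtn3 and Runx1, were chosen after their values were seen. Alternatives left out each array, added a block for the replicate number, centred the arrays, quantile normalized them, averaged probe sets, dropped dim genes, or let the prior follow intensity.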

Additional observations from a re-analysis of the deposited data

How the results depend on the processing

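Over the 10 alternatives, each of which gave a value, the Mcpt8 difference ran from 3.91 to 4.58 around 4.24. That of Gzmc ran from 1.69 to 2.16 around 1.92. The replicate block, averaged probe sets, dropped dim genes and intensity prior could not change these differences. Leaving out 1 of 2 arrays could not move them beyond the pooled SD of the replicates, so these fits do not test stability. Centring gave 4.14 for Mcpt8 and 1.82 for Gzmc, and quantile normalization 4.27 and 1.84. The median of the 10 genes ran from 0.06 to 0.64 over 9 alternatives and had no value when genes above background on fewer than 2 arrays were dropped, since that leaves 4 of the 10. Centring the arrays moved the median of all genes by -0.10 and that of the 10 genes to 0.19. The counts over all genes were less stable. The 288 called higher became 185 to 545 when 1 array was left out (185 without WT replicate 2, 545 without Hem1 KO replicate 2), 620 with the replicate block and 174 with dim genes dropped. The 26 called lower became 26 to 101 (101 and 53 on leaving out Hem1 KO replicate 1 or 2, and 54 without WT replicate 2), 199 with the replicate block, 70 after centring, 8 with dim genes dropped and 205 with a prior that follows intensity. The cause was not tested. With 2 numbers only, a shared replicate number does not show pairing: the deviations of the 2 replicate 1 arrays from their group means correlated at 0.24 across genes. Fits without 1 array assume that the lone array varies like the other group. In them the genes described shared 1 SE, 0.50 without a WT array and 0.40 without a Hem1 KO array. A call there depends only on the size of the difference, so only differences are given for these fits. Col1a2 and Col3a1 lost their calls with dim genes dropped (adjusted p = 0.0855 and 0.0978), as did Nckap1l (0.0866). How many of the 40 values of the 10 genes lay above background depended on the background, 11 with the 95th percentile of receptor genes, 3 with their 99th percentile, and 2, those of Mcpt8 in Hem1 KO, with the 95th percentile of 5222 negative control probe sets, both alternatives chosen after seeing the data.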
